A study of Mus musculus with 4 samples.

Results

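Erythroid progenitors made up 246 of the 41122 bone marrow cells kept here, or 0.598%. A cell was counted as one when it held at least 2 UMIs (unique molecular identifiers, each standing for 1 captured RNA molecule) of Klf1 and at least 3 of Car1, with at most 2 of Pf4 and at most 1 summed over C1qa, C1qb and C1qc. The cells they were set against were 2739 megakaryocyte progenitors, chosen by at least 3 UMIs of Pf4 and at least 1 of Itga2b. Kept cells had at least 500 detected genes and at most 10% of their UMIs from mitochondrial genes, which left out 3029 of 44151 barcodes. The donor cells were CD45.2 haematopoietic stem and progenitor cells (HSPCs) of C57BL/6 mice, either Srcap heterozygous mutant (2 samples) or wild type (2 samples). They were sorted from recipient marrow 20 weeks after competitive transplantation, a setting in which test donor cells share a recipient with competitor cells. SRCAP is the ATPase of a complex that exchanges histone H2A for H2A.Z; the labels do not say what change the mutant allele carries or whether a sample pooled animals.

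The erythroid lineage descends from progenitors that can also form megakaryocytes, and both lineages use GATA1 with its cofactors. Commitment to red cells is driven by KLF1, which opposes the megakaryocytic factor FLI1, and erythropoietin acting through its receptor keeps the committed progenitors alive. Maturing cells then take up iron through the transferrin receptor, make heme in mitochondria and cytosol, build a spectrin-based membrane skeleton and fill with hemoglobin.

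The counts come from 1 aggregated 10x 3' matrix with 4 barcode suffixes, here called libraries 1 to 4. No label ties a suffix to a sample, so mutant and wild-type cells were not compared, and each library's value stands on its own with no mean or p-value over libraries. The libraries held 9511 to 13301 barcodes and 112027160 to 144385614 UMIs, and 209 barcode sequences occurred in more than 1 library, including those of 6 erythroid and 20 megakaryocyte progenitors. Because the members were chosen by their counts, every value that sets them against other cells is a description and carries no test. A gene was counted as higher or lower when its level, with 1 CPM added, was 1.5 times or more that of the other cells in each of the 4 libraries, or as far below it. CPM are the UMIs of a gene summed over the cells of a set and scaled to a total of 1000000 UMIs. Intervals cover counting error only.

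The 4 libraries gave similar numbers of erythroid progenitors. Library 1 had 61 (0.491% of its kept cells, exact 95% binomial interval 0.376 to 0.631%), library 2 had 68 (0.678%, 0.527 to 0.859%), library 3 had 58 (0.601%, 0.457 to 0.776%) and library 4 had 59 (0.654%, 0.498 to 0.842%). The intervals overlap between all libraries. Megakaryocyte progenitors were more common, at 6.99, 6.20, 6.08 and 7.33% of kept cells. Depth differed between the cell sets: the median was 22570 UMIs in erythroid progenitors, against 15389 in megakaryocyte progenitors and 10063 in all kept cells. With every cell first thinned to 5000 UMIs, the same rule took in 0.136 to 0.196% of cells per library. Cells above the 99th percentile of UMIs of their library numbered 40 of 246 erythroid progenitors and 83 of 2739 megakaryocyte progenitors, no doublet caller was run, and the part of doublets in the results was not tested beyond leaving these cells out.

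Markers that the rule did not name fitted the label. Ermap, the erythroblast membrane protein of the Scianna blood group, had a UMI in 77.2% of erythroid progenitors, against 0.402% of megakaryocyte progenitors and 0.246% of B-lineage cells. Among B-lineage cells 1 cell held 21 of the 27 Ermap UMIs. Whether such UMIs came from free RNA or stray cells was not tested. Gata1 had a UMI in 79.3% of erythroid progenitors, against 44.4% of megakaryocyte and 0.986% of B-lineage cells. After thinning to 5000 UMIs the shares for Gata1 were 39.2% of erythroid, 18% of megakaryocyte and 0.171% of B-lineage cells, so the order of the cell types held at equal depth.

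The Car1 limit fell in a sparse part of its distribution, and the Klf1 limit did not. Only 7 members had exactly 3 Car1 UMIs, while 8 excluded cells with at least 2 Klf1 UMIs had 2 of Car1, 5 had 1 and 53 had none. Those 53 cells without Car1 held 12.3 CPM of Ermap, against 241 CPM in members. By contrast 69 members had exactly 2 Klf1 UMIs, and 91 cells fell just outside with 1. The 69 members at the limit held 134 CPM of Ermap and the 91 cells just outside 110 CPM, so the edge cuts through cells of similar profile and the member count depends on it. The Pf4 limit removed 5 cells, of which 4 met the megakaryocyte rule, and the C1q limit removed 7.

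UMIs from marker lists of other lineages were present in some members. At least 3 UMIs summed over the marker list of another lineage were found in 88 of 246 erythroid progenitors, against 1912 of 2739 megakaryocyte progenitors. In erythroid progenitors the T and NK list reached this in 75 cells, with 4 of its 6 genes (Cd3e, Cd3d, Klrd1 and Trac) at 0, and the granulocyte list in 39 cells. Nearly all UMIs of the T and NK list were of Nkg7. Its level was 334, 63.7 and 23.1 CPM in the early, middle and late group of the order described further on. The list thus mostly picked cells by a gene highest in the early group. The lists of 6 genes for monocytes and dendritic cells, for B and plasma cells and for basophils and mast cells reached it in 4, 4 and 3 erythroid cells, and the 7 macrophage genes in 0. Summed granulocyte markers stood at 99.9, 461, 118 and 124 CPM in erythroid progenitors of libraries 1 to 4, against 245, 405, 387 and 597 CPM in megakaryocyte progenitors. Library 2 was the high one among erythroid cells, where 1 cell held 274 of its 283 Elane UMIs.

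Promoters of 4 genes that frame the results are shown, from 250 bases before to 50 after the start of each gene (RefSeq, GRCm38.p6, read 5′ to 3′ on the gene's strand). Klf1 defined the members (chr8:84901732-84902031, + strand). Ermap ranked first above megakaryocyte progenitors, in a ranking that left out the genes of the rules (chr4:119189946-119190245, − strand). Epor encodes the erythropoietin receptor (chr9:21963527-21963826, − strand), and Alas2, the erythroid heme enzyme, had no UMI in any member (chrX:150547167-150547466, + strand). Capitals mark GATAA, the core that GATA factors recognise, and CCNCNCCC, the core that KLF1 recognises, each searched on both strands.
Klf1: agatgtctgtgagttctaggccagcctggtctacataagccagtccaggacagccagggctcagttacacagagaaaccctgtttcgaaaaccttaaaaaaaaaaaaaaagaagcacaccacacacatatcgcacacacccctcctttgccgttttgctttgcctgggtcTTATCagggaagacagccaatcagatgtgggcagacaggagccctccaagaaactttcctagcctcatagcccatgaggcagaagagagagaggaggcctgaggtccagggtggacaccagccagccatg
Ermap: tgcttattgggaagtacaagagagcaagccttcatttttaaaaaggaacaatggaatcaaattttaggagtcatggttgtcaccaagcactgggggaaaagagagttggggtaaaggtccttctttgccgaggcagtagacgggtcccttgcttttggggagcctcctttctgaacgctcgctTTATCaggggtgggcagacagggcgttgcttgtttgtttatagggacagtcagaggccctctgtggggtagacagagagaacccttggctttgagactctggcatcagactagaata
Epor: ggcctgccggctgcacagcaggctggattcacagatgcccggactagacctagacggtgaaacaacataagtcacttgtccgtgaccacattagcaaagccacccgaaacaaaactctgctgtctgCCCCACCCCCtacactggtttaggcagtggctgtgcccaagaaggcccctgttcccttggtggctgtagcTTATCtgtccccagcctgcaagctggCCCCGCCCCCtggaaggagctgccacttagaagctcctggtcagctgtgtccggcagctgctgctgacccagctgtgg
Alas2: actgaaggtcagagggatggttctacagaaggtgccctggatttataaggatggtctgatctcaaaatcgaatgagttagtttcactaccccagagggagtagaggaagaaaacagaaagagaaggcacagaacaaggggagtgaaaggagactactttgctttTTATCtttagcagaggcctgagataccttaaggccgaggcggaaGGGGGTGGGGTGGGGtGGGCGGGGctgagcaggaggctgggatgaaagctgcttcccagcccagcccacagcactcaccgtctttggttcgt
Each of the 4 windows held 1 GATAA match, which 25.4% of all 32851 promoters of the same length also had at least once. CCNCNCCC was matched 4 times in Epor and 4 times in Alas2, counting matches that overlap each other, and 0 times in Klf1 and Ermap, while 49.5% of all promoters held it. No GATAA match overlapped a CCNCNCCC match. Of the 12 genes furthest above megakaryocyte progenitors, 9 were in the promoter table, with 16 promoters between them. Of these 9, 3 held GATAA and 8 held CCNCNCCC in at least 1 listed promoter. Of the 12 furthest below, 7 were in the table, with 7 promoters, and 3 held each motif. The genes above thus had more promoters in which to hold a match, and the shares of all promoters are not per gene. An excess of either motif was not tested. A match describes the letters and not a bound site.

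Against megakaryocyte progenitors, 395 of 9298 measured genes (4.25%) were higher and 1155 (12.4%) were lower in erythroid progenitors, with a median log2 ratio over all genes of -0.14. The counts of called genes in each list below stand beside these shares. Against all other kept cells, 584 of 9491 genes (6.15%) were higher and 1568 (16.5%) were lower. The 12 genes furthest above, ranked by the library with the smallest difference, were Ermap, Tspo2, Sphk1, Atp1b2, Slc25a21, Rhd, Trib2, Mt2, Spire1, Csrp3, Blvrb and C1qtnf12. Ermap stood at 208, 301, 213 and 231 CPM in erythroid progenitors of libraries 1 to 4, against 0.756, 0.295, 0.0974 and 0.326 CPM in megakaryocyte progenitors. Tspo2, a cholesterol-binding membrane protein of erythroid cells, stood at 155, 136, 139 and 143 CPM in erythroid progenitors, against 0.0814 to 0.589 CPM in megakaryocyte progenitors. Both genes were nearly absent from megakaryocyte progenitors in each library. Sphk1, which makes the lipid messenger sphingosine-1-phosphate, stood at 71.3 to 85.1 CPM in erythroid progenitors, against 0 to 0.0974 CPM in megakaryocyte progenitors. Slc25a21, a mitochondrial carrier of oxodicarboxylates, had 412 UMIs in erythroid progenitors, against 1 in the 2739 megakaryocyte progenitors. Trib2, a pseudokinase of the Tribbles family, stood at 90.6, 104, 92.0 and 79.4 CPM in erythroid progenitors, against 0.605 to 1.47 CPM in megakaryocyte progenitors.

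**Figure D1:**
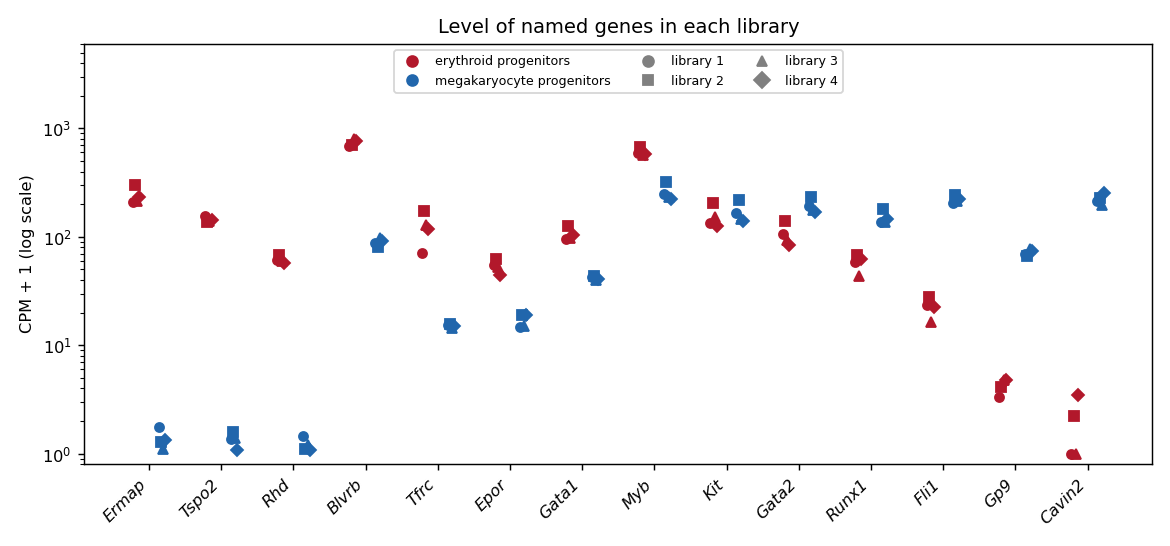
Level of 14 named genes, in CPM + 1 on a log axis, in erythroid progenitors (left, red) and megakaryocyte progenitors (right, blue) of each of 4 libraries, shown by the point's shape. Erythroid membrane genes at the left (Ermap, Tspo2, Rhd) lie above 50 CPM in erythroid cells and near 0 CPM in megakaryocyte cells, Kit is at a similar level in both, and megakaryocyte genes at the right show the opposite order.

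Transcription factors were divided. Of 24 erythroid and shared factors, all measured, 6 were higher in erythroid progenitors (Gata1, Klf1, Ldb1, Myb, Klf3, Ikzf1) and 6 lower (Zfpm1, Lmo2, Lyl1, Gata2, Sox6, Runx1), with a list median of 0.11 on the log2 scale. Klf1 was part of the rule, so its higher level was fixed in advance. Gata1 (chrX:7959260-7978071, − strand, GENCODE M21 on GRCm38) stood at 94.5, 124, 97.4 and 104 CPM in erythroid progenitors, against 41.7, 42.2, 39.2 and 39.5 CPM in megakaryocyte progenitors, a median log2 ratio of 1.34. The groups did not overlap. Myb, needed for the expansion of progenitors, stood at 598, 676, 562 and 574 CPM in erythroid progenitors, against 249, 317, 233 and 224 CPM in megakaryocyte progenitors. Klf3, a repressor of the same family as KLF1, stood at 59.8 to 81.3 CPM in erythroid progenitors, against 17.7 to 22.4 CPM in megakaryocyte progenitors. Ldb1, which bridges GATA1 and TAL1 complexes across DNA, had a median log2 ratio of 0.93, and Ikzf1, the lymphoid and erythroid factor Ikaros, one of 1.25.

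Factors of stem cells and megakaryocytes were on the other side. Runx1 stood at 57.8, 67.5, 42.9 and 61.9 CPM in erythroid progenitors, against 136, 179, 137 and 145 CPM in megakaryocyte progenitors. Gata2, which acts before GATA1 in progenitors, stood at 105, 140, 92.8 and 82.6 CPM in erythroid progenitors, against 190, 232, 174 and 168 CPM in megakaryocyte progenitors. Both genes were lower in every library, but after thinning to 5000 UMIs neither was 1.5-fold lower in each, with median log2 ratios of -1.09 for Runx1 and -0.35 for Gata2. Fli1, the megakaryocytic counterpart of KLF1, stood at 22.6, 26.9, 15.3 and 21.3 CPM in erythroid progenitors, against 202, 241, 212 and 224 CPM in megakaryocyte progenitors. Zfpm1, the GATA1 cofactor FOG1, had a median log2 ratio of -0.86, and Tal1, Gfi1b and Nfe2, shared by both lineages, did not reach the 1.5-fold limit in all libraries (medians -0.11, 0.37 and -0.57).

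The receptor for erythropoietin was higher and most of its downstream genes were not. Epor (chr9:21958897-21963506, − strand) stood at 53.9, 61.3, 52.1 and 43.8 CPM in erythroid progenitors, against 13.7, 18.1, 14.2 and 18 CPM in megakaryocyte progenitors, a median log2 ratio of 1.76. It had a UMI in 59.3% of erythroid progenitors, against 22.9% of megakaryocyte and 0.444% of B-lineage cells; after thinning the shares were 23.7%, 8% and 0.114%. Kit, the receptor for stem cell factor, stood at 132, 206, 152 and 126 CPM in erythroid progenitors, against 166, 219, 144 and 139 CPM in megakaryocyte progenitors, and the groups overlapped. Of 17 measured genes of the Epo and Kit signalling and survival list (22 listed), 2 were higher (Epor and Trib2) and 5 lower (Socs2, Pim1, Bcl2l1, Bbc3, Bcl2), with a median of -0.11. Over all measured genes 4.25% were higher and 12.4% lower, with a median of -0.14.

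The 5 lower genes of this list had different roles. Bcl2, which blocks mitochondrial apoptosis, stood at 30.4, 21.3, 19.9 and 26.9 CPM in erythroid progenitors, against 123, 162, 120 and 138 CPM in megakaryocyte progenitors. Bcl2l1, which encodes BCL-XL, the survival protein of late erythroblasts, stood at 1.88 to 4.60 CPM in erythroid progenitors, against 17.0 to 21.4 CPM in megakaryocyte progenitors. Mcl1, another survival gene of the family, did not differ by 1.5-fold (median log2 ratio -0.08). Pim1, a kinase induced by STAT5, stood at 54.6, 40, 34.5 and 23.1 CPM in erythroid progenitors, against 104 to 108 CPM in megakaryocyte progenitors. Bbc3, which promotes apoptosis, had a median log2 ratio of -0.98. Socs2, a STAT5 target that dampens cytokine receptors, had 5 UMIs in all erythroid progenitors together, and fell under the 5 CPM gene filter when library 4 was left out. Jak2, Stat5a and Stat5b, which relay the Epo signal, had medians of -0.07, 0.16 and 0.23 and were not called.

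Among blood group and surface genes, with a list median of 0.94, 18 of 20 were measured. Of these 9 were higher (among them Rhag, Rhd, Kel, Ermap, Aqp1, Cldn13, Cd24a, Abcb4) and 1 lower (Slc14a1). Rhd stood at 60.1, 67.5, 59.0 and 56.3 CPM in erythroid progenitors, against 0.0814 to 0.454 CPM in megakaryocyte progenitors. Rhag, the partner of RhD in the Rh complex, stood at 26.1 to 32.5 CPM in erythroid progenitors, against 0.570 to 0.877 CPM in megakaryocyte progenitors. Kel, the protease that carries the Kell antigens, had a median log2 ratio of 4.29, and Cldn13, a claudin that in mice is made by erythroid cells, one of 5.29. Aqp1, the red cell water channel, stood at 200, 219, 199 and 164 CPM in erythroid progenitors, against 34.7 to 45.1 CPM in megakaryocyte progenitors, so it was not confined to the erythroid cells. Slc14a1, the urea transporter of the Kidd blood group, went the other way, at 36.7, 46.3, 40.6 and 32.5 CPM in erythroid progenitors, against 123 to 129 CPM in megakaryocyte progenitors. Ermap, Rhd, Aqp1 and Cldn13 were also used to order the cells, as described further on.

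Several heme synthesis genes were higher, and the first enzyme was not. Of 15 measured genes (16 listed), 7 were higher and none lower in erythroid progenitors, with a median of 0.91. Slc25a38, which brings glycine into mitochondria for the first step, stood at 23.4, 21.3, 25.3 and 25.6 CPM in erythroid progenitors, against 6.58 to 8.63 CPM in megakaryocyte progenitors. Alad, the second enzyme, stood at 123, 104, 142 and 126 CPM in erythroid progenitors, against 41.8 to 49.5 CPM in megakaryocyte progenitors. The cell types did not overlap for either gene. Cpox, which works in the mitochondrial intermembrane space, had the largest ratio of the enzymes, at 84.3, 148, 135 and 119 CPM in erythroid progenitors, against 24.2 to 32.7 CPM in megakaryocyte progenitors. Urod, the fifth enzyme, and Fech, which inserts iron into the ring, had medians of 0.89 and 1.12, and Hebp1, a heme-binding protein, one of 1.57. Urod, Fech and Hebp1 missed the 1.5-fold limit in at least 1 library after thinning to 5000 UMIs (medians 0.87, 1.10 and 1.60).

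The enzyme that starts the pathway was not raised. Alas1, the form of 5-aminolevulinate synthase that all cells use, stood at 18.7, 23.8, 14.6 and 18.1 CPM in erythroid progenitors, against 19.3, 22.5, 19.4 and 26.5 CPM in megakaryocyte progenitors, and the groups overlapped. Alas2, the erythroid form that supplies heme for hemoglobin, had no UMI in any of the 246 erythroid progenitors, which allows up to 1.22% of cells with a UMI (not of cells that express the gene) and a level of up to 0.519 CPM, and 18 UMIs in 6 of the 2739 megakaryocyte progenitors.

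**Figure D2:**
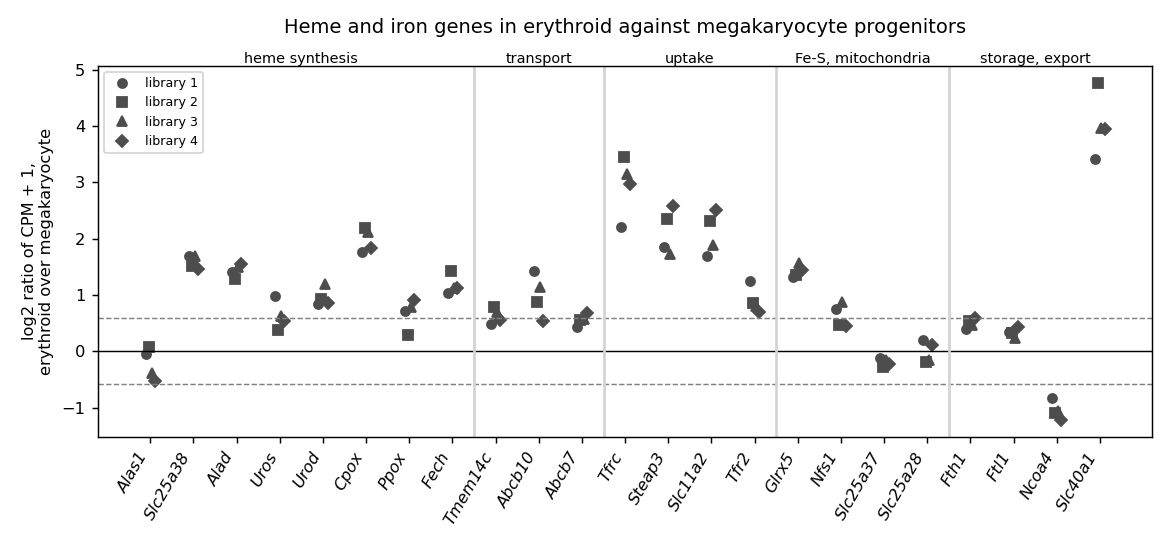
Log2 ratio of CPM + 1, erythroid over megakaryocyte progenitors, for 23 heme and iron genes in pathway order, with 1 point for each of 4 libraries; dashed lines mark 1.5-fold. Alas1 lies near 0, the enzymes that follow lie above it, Tfrc and Slc40a1 are highest, and Ncoa4 is the gene below the lower line.

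Several iron genes were higher as well. Of 20 measured iron genes, 8 were higher (among them Tfrc, Slc11a2, Steap3, Aco1, Slc40a1, Glrx5 and Tfr2) and 1 lower (Ncoa4), with a median of 0.47. Tfrc, the transferrin receptor (chr16:32608920-32632794, + strand), stood at 69.5, 171, 127 and 118 CPM in erythroid progenitors, against 14.3, 14.7, 13.4 and 14.2 CPM in megakaryocyte progenitors. Library 1 was the lowest among the erythroid cells and still above every megakaryocyte value. Tfrc had a UMI in 61.4% of erythroid progenitors, against 18.8% of megakaryocyte progenitors, 33.0% of B-lineage and 51.9% of granulocyte-lineage cells, so it did not mark erythroid cells alone. Steap3, which reduces iron in endosomes, stood at 43.7 to 64.4 CPM in erythroid progenitors, against 8.47 to 12.6 CPM in megakaryocyte progenitors, and Slc11a2, which carries it out of the endosome, had a median log2 ratio of 2.10.

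Genes for handling iron inside the cell were uneven. Glrx5, needed to make iron-sulfur clusters, stood at 302, 334, 423 and 392 CPM in erythroid progenitors, against 121 to 143 CPM in megakaryocyte progenitors. Slc40a1, the iron exporter ferroportin, stood at 25, 45, 33.0 and 34.4 CPM in erythroid progenitors, against 0.687 to 1.44 CPM in megakaryocyte progenitors, a median log2 ratio of 3.96. Ncoa4, the receptor that delivers ferritin for breakdown, stood at 42.9, 41.9, 33.7 and 30.0 CPM in erythroid progenitors, against 71.2 to 90.4 CPM in megakaryocyte progenitors. The ferritin chains Fth1 and Ftl1 and the mitochondrial importer Slc25a37 (mitoferrin) were not called, with medians of 0.50, 0.33 and -0.19. Aco1, which switches between aconitase and iron regulatory protein, missed the limit in at least 1 library after thinning (median 0.75).

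Hemoglobin RNA in most members was near the level in cells of other lineages. The level of free RNA was not measured. The 4 adult genes together (Hba-a1, Hba-a2, Hbb-bs, Hbb-bt) gave 27.3, 38.1, 125 and 23.1 CPM in erythroid progenitors, against 17.1, 14.3, 21.2 and 301 CPM in megakaryocyte progenitors. Single cells set the values of 125 and 301 CPM: 1 erythroid cell of library 3 held 148 hemoglobin UMIs, and 1 megakaryocyte progenitor of library 4 held 3549. At least 10 hemoglobin UMIs were held by 7 of 246 erythroid progenitors, against 6 of 2739 megakaryocyte progenitors. All 7 erythroid cells fell in the late group of the order described further on. Hba-a1 went from 0.796 CPM in the early to 32.2 CPM in the late group, below the 100 CPM limit of the order. It and Hba-a2 were higher in the late group of each library, Hbb-bs and Hbb-bt in 3 of 4. Without cells of 10 or more hemoglobin UMIs the level was 11.2 CPM in erythroid progenitors, against 14.3 CPM in megakaryocyte progenitors and 7 CPM in B-lineage cells. This exclusion lowers the level by construction. A hemoglobin UMI was found in 19.5% of erythroid progenitors, against 15.2% of megakaryocyte progenitors and 8.08% of B-lineage cells, at median depths of 22570, 15389 and 13901 UMIs. At 5000 UMIs per cell the shares were 6.53%, 6.17% and 3.19%. The 2 alpha genes and the 2 beta genes are near-identical pairs whose reads may be split between copies, and the embryonic genes Hbb-bh1, Hbb-bh2, Hbb-y and Hba-x had 0 UMIs in erythroid progenitors.

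**Figure D3:**
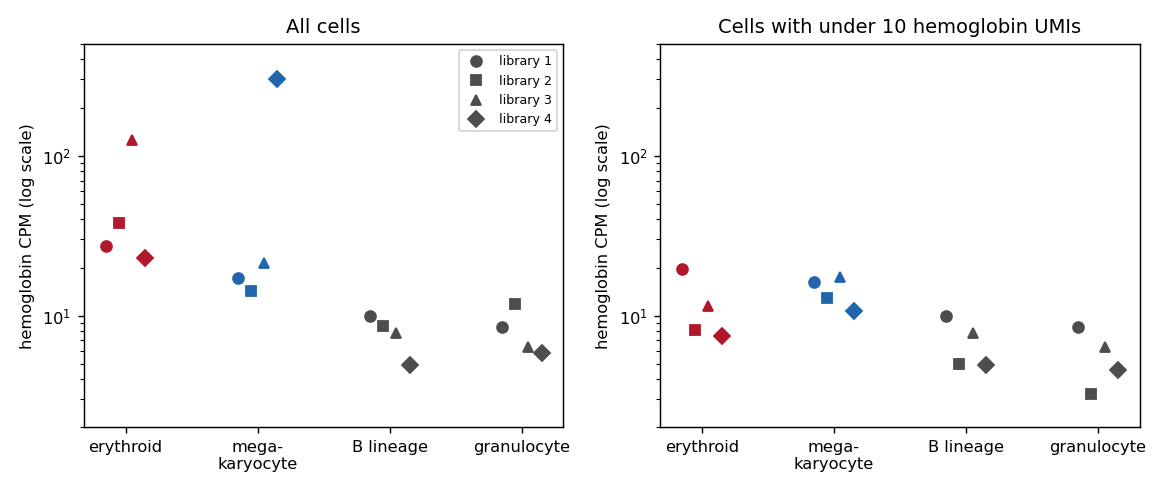
Summed CPM of 4 adult hemoglobin genes on a log axis in erythroid, megakaryocyte, B-lineage and granulocyte-lineage cells of each of 4 libraries (point shape), in all cells (left) and without cells of 10 or more hemoglobin UMIs (right). The high points of erythroid cells in library 3 (125 CPM) and megakaryocyte cells in library 4 (301 CPM) drop to 11.5 and 10.7 CPM.

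The membrane skeleton was partly present. Of 10 measured genes (14 listed), 5 were higher (among them Ank1, Add1, Add2 and Stom) and 2 lower (Tmod1, Tpm3), with a median of 0.63. Ank1, the ankyrin that ties spectrin to the membrane, stood at 20.3, 31.9, 25.3 and 24.4 CPM in erythroid progenitors, against 0 to 0.491 CPM in megakaryocyte progenitors. Add2, the beta adducin that caps actin at spectrin junctions, stood at 32.0, 37.5, 24.5 and 30.6 CPM in erythroid progenitors, against 0 to 0.196 CPM in megakaryocyte progenitors. Slc4a1, the anion exchanger band 3 of late erythroblasts and red cells, had no UMI in any erythroid progenitor, the same upper limit of 0.519 CPM applying. Tmod1, an actin-capping protein of the mature skeleton, had 7 UMIs in erythroid progenitors, or 0 to 2.50 CPM, against 10.2 to 12.7 CPM in megakaryocyte progenitors.

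Carbonic anhydrases and redox genes showed a few high members. Car2, which interconverts carbon dioxide and bicarbonate like Car1, stood at 1351, 1608, 1658 and 1619 CPM in erythroid progenitors, against 799, 793, 711 and 717 CPM in megakaryocyte progenitors, and missed the limit in at least 1 library after thinning (median 0.80). Car1 was part of the rule, and it and Car2 were the 2 called of 5 measured carbonic anhydrases (9 listed, median -0.48, which turned to 0.07 after thinning and to 0.23 without library 3). Blvrb, a flavin and biliverdin reductase of red cells, stood at 688, 696, 797 and 766 CPM in erythroid progenitors, against 79.7 to 95.6 CPM in megakaryocyte progenitors. It was 1 of 4 higher genes among 11 measured genes for heme breakdown and redox (12 listed, median 0.48), with Prdx2, Nqo1 and Gclm. Mt2, a metal-binding metallothionein, stood at 175, 140, 133 and 184 CPM in erythroid progenitors, against 5.75 to 11.3 CPM in megakaryocyte progenitors.

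Megakaryocyte genes were lower in erythroid than in megakaryocyte progenitors, but not equally low in all members. Only 2 of them were measured along the order described further on, and both were lower in its late group. Mef2c stood at 201 CPM in the early and 39.6 CPM in the late group, and Rgs18 at 123 and 39.2 CPM. All 23 measured members of the megakaryocyte list (28 listed) were lower, with a median of -3.93, beside 12.4% of all measured genes. Pf4 and Itga2b among them were part of the rules, and the cells compared were chosen by these megakaryocyte genes. Gp1bb, Cavin2 and Gp9, among others, passed the 5 CPM filter only through their level in megakaryocyte progenitors. Their direction was thus fixed in advance, and the count describes how the cells were chosen. Cavin2, a caveola coat protein of platelets, had 6 UMIs in erythroid progenitors, or 0, 1.25, 0 and 2.50 CPM in libraries 1 to 4, against 212, 227, 194 and 252 CPM in megakaryocyte progenitors. Gp9, a subunit of the von Willebrand factor receptor, stood at 2.34 to 3.83 CPM in erythroid progenitors, against 66.2 to 75.4 CPM in megakaryocyte progenitors. The cell types did not overlap for either gene. Gp1bb had 0 UMIs in erythroid progenitors, so its level was at least 36.4-fold lower than in megakaryocyte progenitors, with 3 counts over all erythroid cells as the floor. Ptgs1 and Tbxas1, which make thromboxane, Vwf and Mmrn1, stored in platelet granules, and Rab27b, which moves these granules, were among the 12 genes furthest below.

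Stem cell genes were also low. Of 20 measured genes, 11 were lower and none higher than in megakaryocyte progenitors, with a median of -1.70, where 12.4% of all measured genes were lower. Meis1, a homeobox factor of stem cells and megakaryocytes, stood at 39.0, 30.6, 11.5 and 29.4 CPM in erythroid progenitors, against 204 to 273 CPM in megakaryocyte progenitors. Cd34 stood at 46.8, 26.9, 16.9 and 30.0 CPM in erythroid progenitors, against 96.1, 120, 102 and 67.7 CPM in megakaryocyte progenitors. Hlf, a stem cell factor, stood at 26.5, 35.6, 11.5 and 31.3 CPM in erythroid progenitors, against 96.4 to 153 CPM in megakaryocyte progenitors. Library 3 had the lowest erythroid value of each of these 3 genes, and it also had the smallest share of cells in the early group described below. Ifitm1 was an exception to the direction, at 461, 282, 220 and 258 CPM in erythroid progenitors, against 168 to 206 CPM in megakaryocyte progenitors, though not 1.5-fold higher in every library.

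Erythroid and megakaryocyte progenitors had similar levels of cell cycle genes. Of 32 S phase genes 2 were higher (Cdc6, Ccne1) and none lower, and of 30 G2 and M phase genes none was higher and 1 lower (Ckap2l), with medians of -0.12 and -0.18 beside -0.14 for all genes. Mki67, a marker of dividing cells, stood at 350, 824, 403 and 429 CPM in erythroid progenitors, against 522, 809, 467 and 508 CPM in megakaryocyte progenitors, and the groups overlapped. At 5000 UMIs per cell, 83.7% of erythroid progenitors lay above the median of all kept cells for summed cycle UMIs, against 75.2% of megakaryocyte progenitors; without thinning these were 87.0% and 80.0%. In erythroid progenitors the thinned share was 75.4, 85.3, 80.7 and 93.2% in libraries 1 to 4.

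Ccne1, the cyclin that acts with CDK2 at the start of S phase, stood at 21.9, 43.1, 45.2 and 39.4 CPM in erythroid progenitors, against 7.03, 8.35, 6.82 and 11.5 CPM in megakaryocyte progenitors. Of 16 measured G1 cyclins and inhibitors (17 listed), 8 were lower and none higher, with a median of -0.78, where 12.4% of all measured genes were lower. Ccnd1 stood at 22.6, 26.3, 26.8 and 33.8 CPM in erythroid progenitors, against 78.6 to 91.7 CPM in megakaryocyte progenitors, and Ccnd2 and Ccnd3 had medians of -0.88 and -1.06. Cdkn2d, an inhibitor of the CDK4 and CDK6 kinases, stood at 34.4, 37.5, 22.2 and 32.5 CPM in erythroid progenitors, against 98.8 to 106 CPM in megakaryocyte progenitors. Ccne1 and Ccnd2 missed the limit in at least 1 library after thinning (medians 1.66 and -0.81).

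Pyruvate kinase differed by isozyme. Pklr, the liver and red cell form, had 198 UMIs in erythroid progenitors (24.2, 39.4, 36.0 and 35.7 CPM), against 0 UMIs in megakaryocyte progenitors, at least 524-fold higher with 3 counts over all megakaryocyte cells as the floor. Pkm, the form of most other tissues, stood at 61.7, 48.8, 28.4 and 43.2 CPM in erythroid progenitors, against 241, 259, 246 and 247 CPM in megakaryocyte progenitors. The 2 genes thus went in opposite directions in each library. Of 16 measured glycolysis genes (18 listed), Pklr was the 1 higher, and 5 were lower (Pfkp, Pgam1, Pkm, Ldhb, Bpgm), with a median of -0.39. Over all measured genes 4.25% were higher and 12.4% lower. Bpgm, which makes the 2,3-bisphosphoglycerate that tunes oxygen release in red cells, stood at 8.43 to 14.1 CPM in erythroid progenitors, against 19.6 to 22.1 CPM in megakaryocyte progenitors; it and Pgam1 missed the limit after thinning.

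Calls among biosynthetic genes differed by list, where 4.25% of all measured genes were higher and 12.4% lower. Of 22 MYC and ribosome biogenesis genes 4 were higher (Ncl, Nolc1, Rrp9, Polr1b) and 1 lower (Mycn), with a median of 0.55 beside -0.14 for all genes. Ncl, nucleolin, stood at 2181, 2965, 2456 and 2584 CPM in erythroid progenitors, against 1446 to 1678 CPM in megakaryocyte progenitors, and missed the limit in at least 1 library after thinning (median 0.60). Mycn stood at 0 to 8.76 CPM in erythroid progenitors, against 55.4 to 104 CPM in megakaryocyte progenitors, while Myc was at 121 to 176 CPM in erythroid progenitors, against 95.9 to 109 CPM in megakaryocyte progenitors, without reaching 1.5-fold in all libraries. Of 20 nucleotide and one-carbon genes 3 were higher, among them Mthfd1, which interconverts folates, at 144, 237, 189 and 186 CPM in erythroid progenitors, against 41.7 to 53.1 CPM in megakaryocyte progenitors. Of 28 oxidative phosphorylation genes 1 was higher and none lower (median 0.23).

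**Figure D4:**
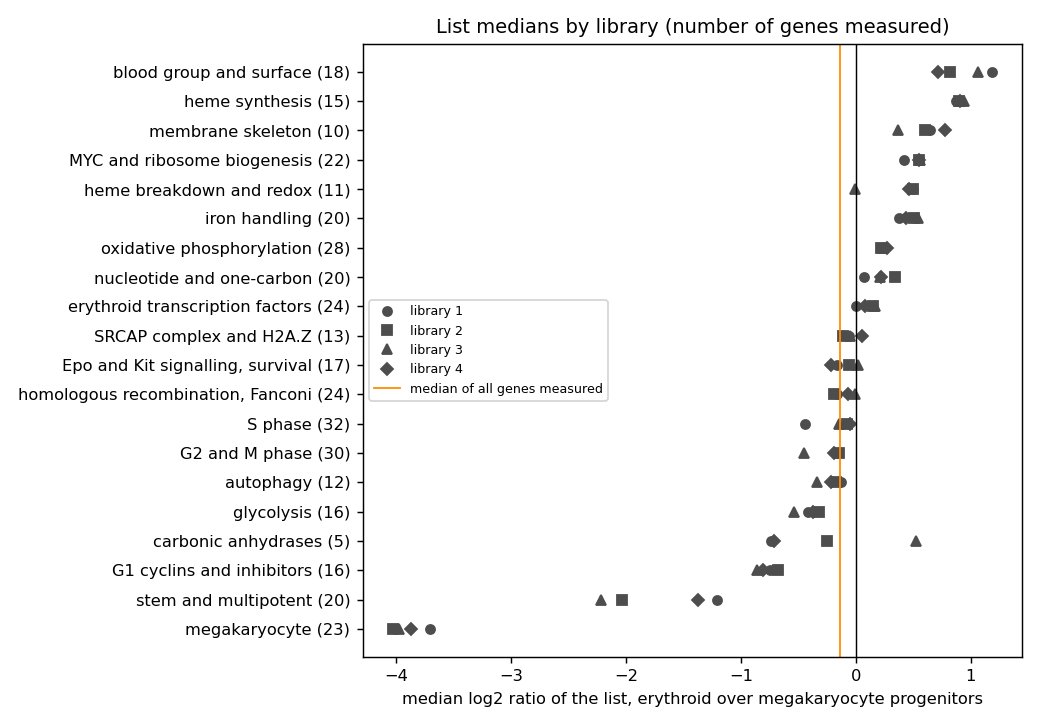
Median log2 ratio, erythroid over megakaryocyte progenitors, of each of 20 gene lists (rows, number of genes measured in brackets), with 1 point for each of 4 libraries; the orange line is the median of all genes, -0.14. Blood group and heme lists lie highest and the megakaryocyte list lies lowest (-3.93), while cell cycle lists lie near the line.

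Srcap itself (chr7:127511983-127561219, + strand) did not separate the cell types. It stood at 46.8, 76.9, 58.3 and 35.7 CPM in erythroid progenitors of libraries 1 to 4, against 58.8, 89.8, 53.2 and 55.5 CPM in megakaryocyte progenitors, and the groups overlapped. Library 2 was highest in both cell types, and library 4 was lowest among erythroid progenitors with an exact 95% Poisson interval of 27.0 to 46.2 CPM, against 63.9 to 91.7 CPM in library 2. Of 13 genes of the SRCAP complex and H2A.Z, none was higher and 1 lower, H2afv, which encodes the H2A.Z.2 form, at 354, 317, 312 and 325 CPM in erythroid progenitors, against 525 to 536 CPM in megakaryocyte progenitors. It missed the limit in at least 1 library after thinning (median -0.62), and H2afz, which encodes H2A.Z.1, had a median of -0.27.

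The members were then ordered among themselves. The score was the log2 ratio of summed UMIs of 6 late genes (Ermap, Blvrb, Rhd, Aqp1, Cldn13, Tspo2) to those of 6 early genes (among them Gata2, Itga2b, Cd34, Cd9 and Muc13), with 1 UMI added to each sum, and the cells were cut into an early, a middle and a late group of 82 each. The groups also differed in depth, with median UMIs of 11989, 22845 and 30249 from early to late, and in library: the early group took 47.5, 38.2, 20.7 and 25.4% of the erythroid progenitors of libraries 1 to 4. These differences move with every value along the order, and their part was not tested beyond the alternatives in the closing section. A gene was measured along the order when it reached 100 CPM in at least 1 group. Of 1665 measured genes, those of the score and the rules left out, 106 (6.37%) were at least 1.5-fold higher in the late than in the early group in every library, and 108 (6.49%) were lower. Without the cells that held other-lineage UMIs, 17 were higher and 29 lower, and with the order taken from cells thinned to 5000 UMIs, 62 were higher and 82 lower. Most cells of the first exclusion were picked by Nkg7 UMIs, a gene highest in the early group.

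Of 5 measured heme synthesis genes (16 listed) 3 were higher in the late group, and of 8 measured iron genes (20 listed) 4 were higher (among them Tfrc, Fth1 and Glrx5). None was called lower in either list, though Hscb, at 124 CPM in the early and 67.5 CPM in the late group, was lower in each library. Below the 100 CPM limit, Ncoa4 went from 76.4 to 25.1 CPM and Slc40a1 from 16.7 to 43.9 CPM. Both were past 1.5-fold in every library, in opposite directions. Cpox stood at 32.6, 105 and 182 CPM in the early, middle and late group. Tfrc stood at 116, 236, 134 and 170 CPM in the late group of libraries 1 to 4, against 23.3, 56.0, 50.5 and 32.7 CPM in the early group. Cpox and Tfrc were both higher in the late group of every library. Mt1 stood at 728 CPM in the late group, against 162 CPM in the early group, and Mt2 at 246 CPM, against 22.3 CPM. Sphk1, Spire1, an actin nucleator, Smim1, which carries the Vel blood group, and C1qtnf12, a secreted protein of the C1q and TNF family, completed the 8 genes with the largest increases; C1qtnf12 reached 430 CPM in the late group, against 69.3 CPM in the early group.

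All 5 measured genes of the stem cell list (20 listed) were lower in the late group (Sox4, Angpt1, Ifitm1, Ifitm3 and Txnip). Sox4, Angpt1 and Txnip reached the 100 CPM limit only in the early group, so the filter favoured this direction. The score also used early genes such as Cd34, so the decrease is a description. Below the limit, Mllt3 of the same list went the other way, from 29.5 to 69.4 CPM, and was higher in the late group of each library. Ifitm1, an interferon-induced membrane protein, stood at 36.0, 34.2, 51.6 and 66.5 CPM in the late group of libraries 1 to 4, against 1248, 875, 1124 and 873 CPM in the early group. Ctla2a, a cathepsin inhibitor of progenitors, stood at 21.6 CPM in the late group, against 573 CPM in the early group. Angpt1, a ligand of the TEK receptor made by stem cells and megakaryocytes, stood at 20.0 CPM in the late group, against 162 CPM in the early group. All 3 were lower in each library. The neutrophil granule genes Mpo, Ctsg, Prtn3 and Elane were among the 8 with the largest decreases, but Elane was not called. Their levels in the early group ranged widely between libraries, Mpo at 48.9, 270, 309 and 14.6 CPM. Over all members, 1 cell gave most of the Elane UMIs. Single cells held 105 of 109 Mpo UMIs in library 2, 48 of 58 in library 3 and 74 of 83 in library 4, but at most 8 of 25 in library 1. For Prtn3, 1 cell held 208 of the 264 UMIs of library 2. Among nuclear factors, Runx1 was lower in the late group, at 40.8 CPM, against 108 CPM in the early group, while Gata1 (117 CPM, against 83.6 CPM), Myb (499 CPM, against 768 CPM) and Kit (149 CPM, against 174 CPM) were not called.

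**Figure D5:**
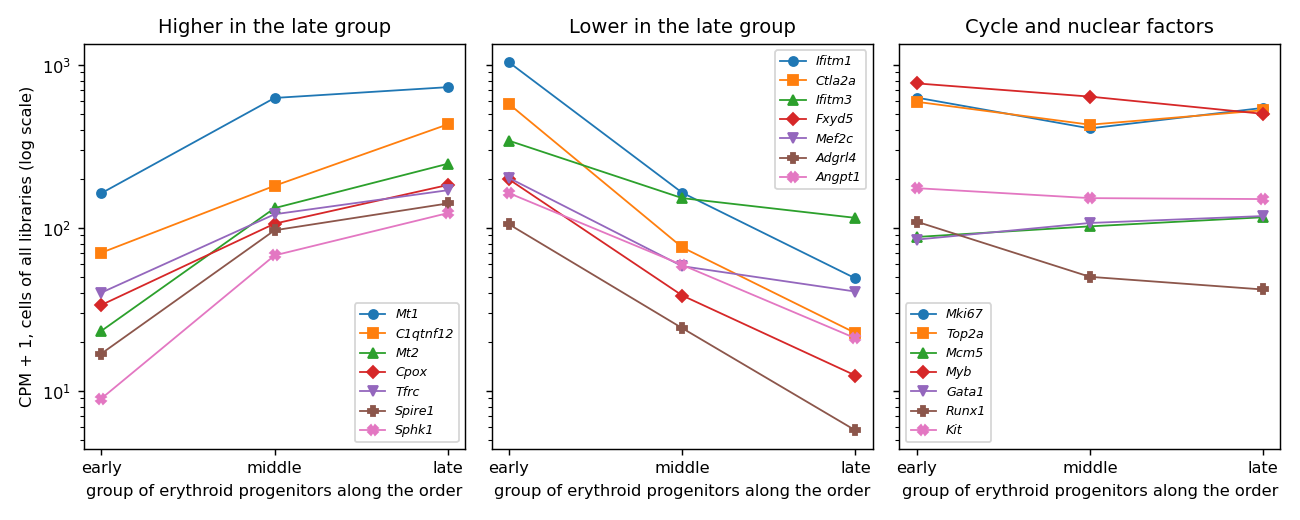
CPM + 1 on a log axis of named genes in the early, middle and late group of 246 erythroid progenitors ordered from early to late genes, with the cells of all libraries summed. The named genes of the left panel increase from early to late, those of the middle panel decrease, and Mki67, Top2a and Gata1 differ by less than 1.5-fold between the late and the early group.

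No measured cell cycle gene was called along the order. None of 13 measured S phase genes (32 listed) and 17 measured G2 and M phase genes (30 listed) passed the limit. Over all measured genes 6.37% were higher and 6.49% lower. Below the 100 CPM limit, Ccne1 stood at 6.37 CPM in the early and 58.5 CPM in the late group. Tacc3, also below it, stood at 24.7 and 57.7 CPM. Both were past 1.5-fold in every library. The share of cells above the kept cells' median for cycle UMIs was 70.7, 93.9 and 96.3% from the early to the late group, and the median cycle UMIs at 5000 UMIs per cell were 30, 40 and 50. The deeper groups thus also held more cycle UMIs at equal depth. Among ribosome biogenesis genes 5 of 14 measured were higher in the late group (Ncl, Npm1, Nolc1, Gnl3, Nhp2).

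Erythroid progenitors of the 4 libraries resembled each other. Of 3298 genes with at least 50 CPM in a library, only 2, 10, 4 and 3 lay at least 2-fold from the median of the libraries in libraries 1 to 4. The largest gap was that of Elane, at 6.25, 177, 8.43 and 5.63 CPM, and the next that of Hbb-bs, at 10.1, 4.38, 52.9 and 1.88 CPM, where 1 cell held 68 of the 69 UMIs of library 3. Rictor, a subunit of mTOR complex 2, stood at 27.3, 57.5, 27.6 and 24.4 CPM in erythroid progenitors, and library 2 was also highest in megakaryocyte progenitors, at 43.8, 63.9, 40.8 and 43.6 CPM. Lnpep, Aebp2, Hist2h2ac and Myo18a had the same library 2 high in both cell types. A difference between libraries cannot be assigned to a genotype, a recipient or a preparation with these labels.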

How the data were processed

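The 4 samples were profiled with 10x 3' chemistry, and the authors deposited 1 aggregated matrix of UMI counts for 32285 genes, which the file headers give as output of Cell Ranger 6.1.2 and the submitters' processing notes place on mm10. These counts were used as deposited, per the file headers without scaling. Cells were filtered and chosen as the report states, and their UMIs summed per barcode suffix and scaled to CPM. Genes averaging 5 CPM over both cell sets were measured, and log2 ratios used CPM + 1. B-lineage cells held at least 3 UMIs of Cd79a and granulocyte-lineage cells at least 3 of Elane. The 1.5-fold rule in every library is a rule of size and gives no p-value; on simulated counts it was tested with known folds. Genes named are members of the gene lists, the 12 furthest in each direction at 50 CPM or more, the 10 with the largest gaps between libraries and the 8 largest along the order at 100 CPM or more; Angpt1, Runx1, Gata1, Myb and Kit along the order are list members. Some members of these lists are counted but not reported here by name. Members, gene lists and rules were chosen with earlier results of these data known. The planned mutant against wild-type test was not made, because no label ties suffixes to samples. Promoters came from the RefSeq table and gene positions from GENCODE M21, both on GRCm38, the same build as mm10. Python 3.11.15, NumPy 2.4.6, SciPy 1.17.1, pandas 2.3.3 and matplotlib 3.10.9 were used.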

Additional observations from a re-analysis of the deposited data

How the results depend on the processing

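Of the 144 named genes called against megakaryocyte progenitors, none changed the sign of its median log2 ratio over libraries under any alternative. Single libraries could change sign, as Ccne1 did after thinning, with a lowest value of -0.11. Named genes without a call, and single genes along the order, were not checked in this way. Among list medians, that of the carbonic anhydrases, -0.48, turned to 5.19 with a filter at 20 CPM, 0.07 after thinning, 0.10 without cells holding other-lineage UMIs and 0.23 without library 3. The globin support median, 0.10, turned to -0.14 after thinning, and the SRCAP complex median, -0.06, to 0.03 with every cell weighted equally. The count of genes lower in erythroid than in megakaryocyte progenitors, 1155, became 528 with a filter at 20 CPM and 1912 with no filter, where by construction fewer or more genes were measured; under the other settings it lay between 838 and 1355, and the count of higher genes between 275 and 478 over all settings. Leaving out each library gave 427 to 473 higher and 1251 to 1353 lower genes. Of 144 named genes called, 113 kept the call after thinning to 5000 UMIs, 122 with every cell weighted equally, 122 without cells above the 99th percentile of UMIs and 134 without cells holding other-lineage UMIs; these 2 exclusions left 206 and 158 erythroid progenitors. The shares of erythroid progenitors in libraries 1 to 4 became 0.234, 0.359, 0.383 and 0.421% with at least 4 Klf1 and 6 Car1 UMIs, and 0.136, 0.169, 0.162 and 0.196% when cells were thinned to 5000 UMIs before the rule, which raises the limit relative to depth. Along the order, 106 higher genes became 52 with the 3 groups taken within each library and 62 with the order taken from thinned UMIs. Without cells holding other-lineage UMIs 17 were higher and 29 lower, in groups as small as 4 cells of a library. Most cells left out there were picked by Nkg7 UMIs, a gene highest in the early group. Leaving out each library gave 83 to 148 higher and 83 to 134 lower genes; the cause of the spread was not tested. The order from thinned UMIs, the order without very deep cells, without other-lineage cells and without single libraries, and the exclusion of very deep cells were added after seeing the data. No paired analysis was possible because the barcode suffixes carry no sample or replicate number; for the same reason the planned edgeR and DESeq2 comparisons of mutant with wild type, with and without the block, were not run. Depth limits the low genes: 3 counts over all erythroid progenitors stand for 0.519 CPM, and 3 in 1 library for 1.88 to 2.34 CPM.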

Other observations

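Genes among the 12 furthest above all other kept cells that were not among the 12 highest against megakaryocyte progenitors included Ces2g, a carboxylesterase, at 138, 168, 133 and 150 CPM in erythroid progenitors of libraries 1 to 4, and Abcb4, a phospholipid transporter, at 119, 175, 146 and 124 CPM in erythroid progenitors. Megakaryocyte progenitors held 15.6 to 29.0 CPM of Ces2g and 12 to 20.2 CPM of Abcb4, more than the medians of 4.46 and 6.12 CPM in all other kept cells. Gp5, a platelet glycoprotein, was lower in erythroid than in megakaryocyte progenitors, at 28.1 to 33.7 CPM, against 64.5 to 76.6 CPM, but higher than in all other kept cells, with a median of 13.8 CPM.

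Homologous recombination and Fanconi genes showed no call among 24 measured, with a median log2 ratio to megakaryocyte progenitors of -0.12 beside -0.14 for all genes. Of 12 autophagy genes none was higher and 2 were lower (Map1lc3a and Gabarapl1), near the 12.4% lower among all measured genes. Gabarapl1 missed the limit in at least 1 library after thinning (median -1.08), and Map1lc3a was not measured with a filter at 20 CPM. Bnip3l, which clears mitochondria from maturing red cells, stood at 188, 164, 143 and 150 CPM in erythroid progenitors, against 165 to 172 CPM in megakaryocyte progenitors. Of 5 measured genes that support globin synthesis none was called, and Eif2ak1, the kinase that senses heme, stood at 25, 49.4, 22.2 and 26.3 CPM in erythroid progenitors, against 22.4 to 27.1 CPM in megakaryocyte progenitors.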
